A study of Mus musculus with 14 samples.

Results

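The FGF-ERK pathway was followed through 10 genes chosen by name: the ligand *Fgf4*, the receptor *Fgfr1*, the feedback inhibitors *Spry1*, *Spry2*, *Spry4*, *Spred1* and *Spred2*, and the transcriptional targets *Etv4*, *Etv5* and *Egr1*. All 10 were found among the 23298 genes of the deposited table, and all 10 were detected in every one of the 14 mouse embryonic stem (ES) cell lines. The lowest signal of any of them was 305, for *Spry1* in the line CB XX 2, so that no member came near the filter on low values at a signal of 10.

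FGF4 is secreted by ES cells and acts on FGF receptors, of which FGFR1 is the main one in undifferentiated cells. The bound receptor recruits adaptors that load RAS with GTP, and RAS activates the RAF, MEK and ERK kinases in turn. Active ERK switches on target genes, among them the ETS family factors ETV4 and ETV5 and the zinc finger factor EGR1, an immediate early response. Sprouty and Spred proteins are made in response to the same signal and act back on the pathway at the level of RAS and RAF. In ES cells the pathway is known for driving the exit from naive pluripotency and the choice of primitive endoderm.

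Each line was derived from a single blastocyst of a cross between the mouse strains C57BL/6J and CAST/EiJ. BC lines had a C57BL/6J mother and a CAST/EiJ father, and CB lines had the reverse parents. There were 3 BC XX, 3 BC XY, 2 BC XO, 3 CB XX and 3 CB XY lines, the last letters naming the sex chromosomes, and no CB XO line. All groups were untreated F1 hybrid ES cells of early passage, grown in serum and LIF on inactivated mouse embryonic fibroblast (MEF) feeders, with 2 consecutive depletions of feeders before RNA was taken. A replicate is therefore another embryo, and each line is 1 derivation. Replicate numbers of CB XX lines follow the column order of the table, because those column names differ from the line numbers of the labels. The comparisons ask whether the pathway genes differ between XX, XY and XO cells and between the directions of the cross.

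The deposited values are a read signal per gene that the authors scaled to a common depth, and they sum to between 28150946 and 30657803 per line. If the smallest step between low values is taken as 1 read, the libraries hold from 11904392 (CB XY 2) to 69646019 reads (BC XX 2). On that basis the fewest reads behind a member's value were 247, for *Spred2* in BC XY 1, with a counting error of 6.36%, which covers counting only. Feeder RNA was uneven. The summed signal of 22 fibroblast markers was 138465, 206859 and 283488 in the BC XX lines and between 21169 and 59220 in the other 11 lines, and all 22 were detected in every line. The summed signal of 10 ES cell markers was between 108936 and 177355, lowest in BC XX 3. The libraries labelled CB XY 2 and 3 had the Y-linked transcript *Uty* at 19.6 and 45.4, against 945 to 2088 in the other XY lines and up to 196 in XX lines. The XX lines carried Y-linked RNA too, since 4 Y-linked genes summed to 533, 811 and 1659 in BC XX and to 82, 284 and 331 in CB XX lines, against 54 and 226 in CB XY 2 and 3, 2107 to 4640 in the other XY lines and 157 and 175 in XO lines. Of these genes *Kdm5d* and *Eif2s3y* had XX minus XY log2 differences of 1.19 and 0.43, neither past the test (limma, adjusted p = 0.17 and 0.79). Some chromosomes stood apart in single lines of both crosses, measured as the median over genes of the log2 difference from the median of all lines. Among chromosomes that hold a member, the departures of at least 0.15 were chromosome 8 at 0.33 in CB XY 1, 0.25 in CB XX 3 and -0.19 in BC XX 3, chromosome 7 at -0.28 in BC XX 3 and chromosome 3 at -0.15 in CB XX 1. Chromosomes with no member departed too, among them chromosome 6, raised in CB XX 1, CB XY 2 and CB XY 3. Chromosome 1 was at 0.35 in CB XX 1 and chromosome 12 at -0.29 in CB XX 2. Beyond the alternatives given beside the results, the part of feeder RNA, of the low Y-linked RNA and of these chromosomes in them was not tested.

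**Figure D1:**
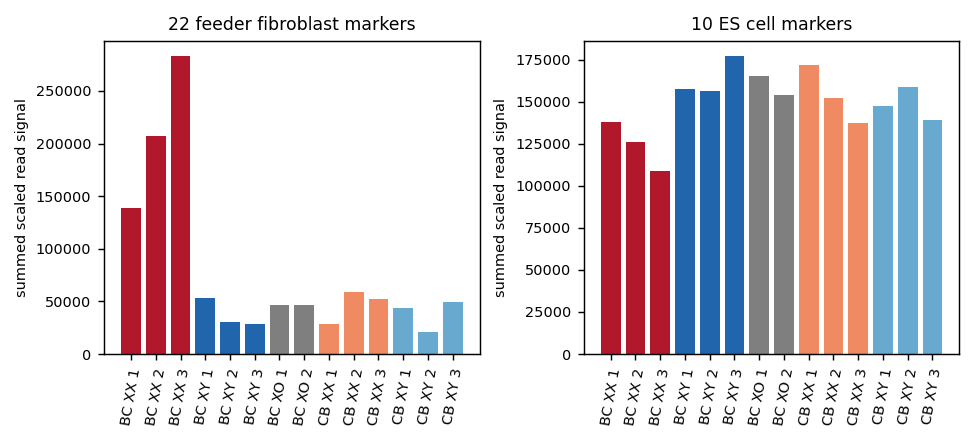
Summed scaled read signal of 22 feeder fibroblast markers (left) and 10 ES cell markers (right) in each of the 14 lines, 1 bar per line coloured by group. The 3 BC XX lines stand above the other 11 in fibroblast markers, and BC XX 3 is lowest in ES cell markers.

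Promoters of 6 members were found by symbol in the RefSeq table of 300-base windows, which run from 250 bases before to 50 bases after a start. Those of *Spry1* and *Spry2* are shown because these are the members whose XX and XY lines differed most in the comparisons that follow, *Spry1* over both crosses and *Spry2* among the BC lines. Both are given 5' to 3' on the strand of the gene in build GRCm38.p6, at chr3:37639697-37639996 (plus strand) for *Spry1* and chr14:105896770-105897069 (minus strand) for *Spry2*. Capitals mark the ETS core GGAAG, searched on both strands.
Spry1: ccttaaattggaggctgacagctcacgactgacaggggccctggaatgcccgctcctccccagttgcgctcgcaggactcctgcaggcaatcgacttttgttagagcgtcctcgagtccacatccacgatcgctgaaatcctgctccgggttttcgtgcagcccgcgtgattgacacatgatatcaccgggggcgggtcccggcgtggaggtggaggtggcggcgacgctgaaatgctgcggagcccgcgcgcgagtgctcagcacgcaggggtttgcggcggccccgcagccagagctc
Spry2: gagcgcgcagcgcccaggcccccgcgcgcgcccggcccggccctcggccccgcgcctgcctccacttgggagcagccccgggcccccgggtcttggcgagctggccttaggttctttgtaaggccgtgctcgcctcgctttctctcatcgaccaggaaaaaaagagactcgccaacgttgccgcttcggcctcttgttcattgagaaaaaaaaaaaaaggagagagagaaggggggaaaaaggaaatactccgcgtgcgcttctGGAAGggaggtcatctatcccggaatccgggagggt
The *Spry2* window holds 1 match, covering the bases 14 to 18 positions after the start base, and the *Spry1* window holds none. The core is short and common, since 71.4% of all 32851 promoter windows hold it. The *Spred2* window had 5 matches and that of *Spred1* had 2, while *Etv5* had 4 matches in one of its windows and none in the other, and *Fgf4* had none. The longer ETS sequence CCGGAAG is in 8.86% of all windows, the CRE TGACGTCA in 1.79% and the CArG box in 1.63%, and none of these was in the windows of the 6 members. The GC content was 64.3% for *Spry1* and 62.7% for *Spry2*.

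Per kilobase of exon, the signal of the 10 genes spanned a wide range. *Etv5* was highest, with a mean of 2253 per kb and an SD of 606.6 over the 14 lines, and the inhibitor *Spry2* followed with 1780 ± 502 (SD, n = 14). The ligand *Fgf4* had 1645 ± 274 and *Spry4* had 823 ± 348. In the middle of the order were *Egr1* with 449 ± 137, *Spred1* with 364 ± 70.8 and *Etv4* with 313 ± 125. The receptor *Fgfr1* had 252 ± 66.0, *Spry1* 183 ± 56.0 and *Spred2*, the lowest, 119 ± 31.3. The ranges over the lines overlapped for every pair of neighbours in this order. Within a line, the order of neighbours was most constant for *Fgf4* above *Spry4*, which held in 14 of 14 lines, and *Spry4* above *Egr1*, which held in 13. *Spry2* was above *Fgf4* in only 6 of 14 lines. The lengths are those of all exons joined in the mm9 annotation, so that an isoform with fewer exons would have a higher level than given.

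**Figure D2:**
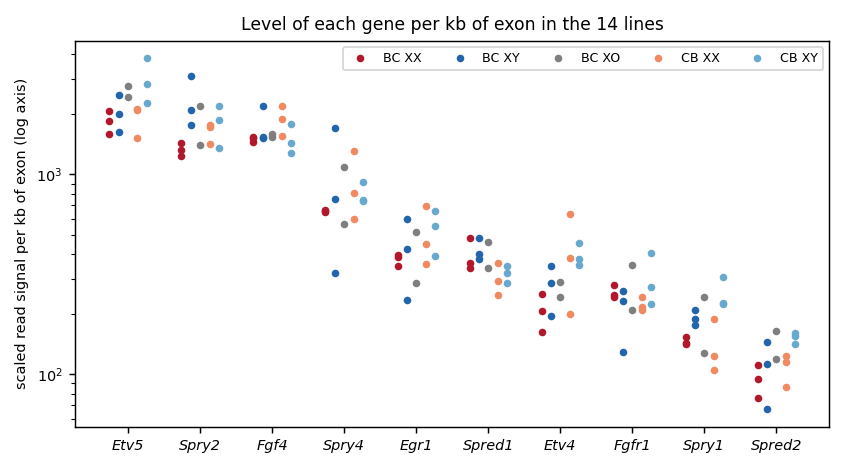
Scaled read signal per kb of exon (log axis) of the 10 genes in the 14 lines, 1 dot per line coloured by group, ordered by the mean over all lines. *Etv5*, *Spry2* and *Fgf4* lie highest and *Spred2* lowest, and the dots of neighbouring genes overlap.

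The genes also differed in how much lines of 1 group varied. The SD within groups on the log2 scale was 0.67 for *Spry4*, larger than in 93.8% of 16261 genes, and 0.48 for *Egr1* and 0.47 for *Etv4*, larger than in 79.8% and 78.7%. At the other end, *Fgf4* had 0.22 and *Spred1* 0.23, larger than in 23.9% and 27.9% of the genes. The median over all genes was 0.32, and *Spry1* (0.33), *Spry2* (0.31), *Spred2* (0.34), *Etv5* (0.28) and *Fgfr1* (0.38) lay around it.

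**Figure D3:**
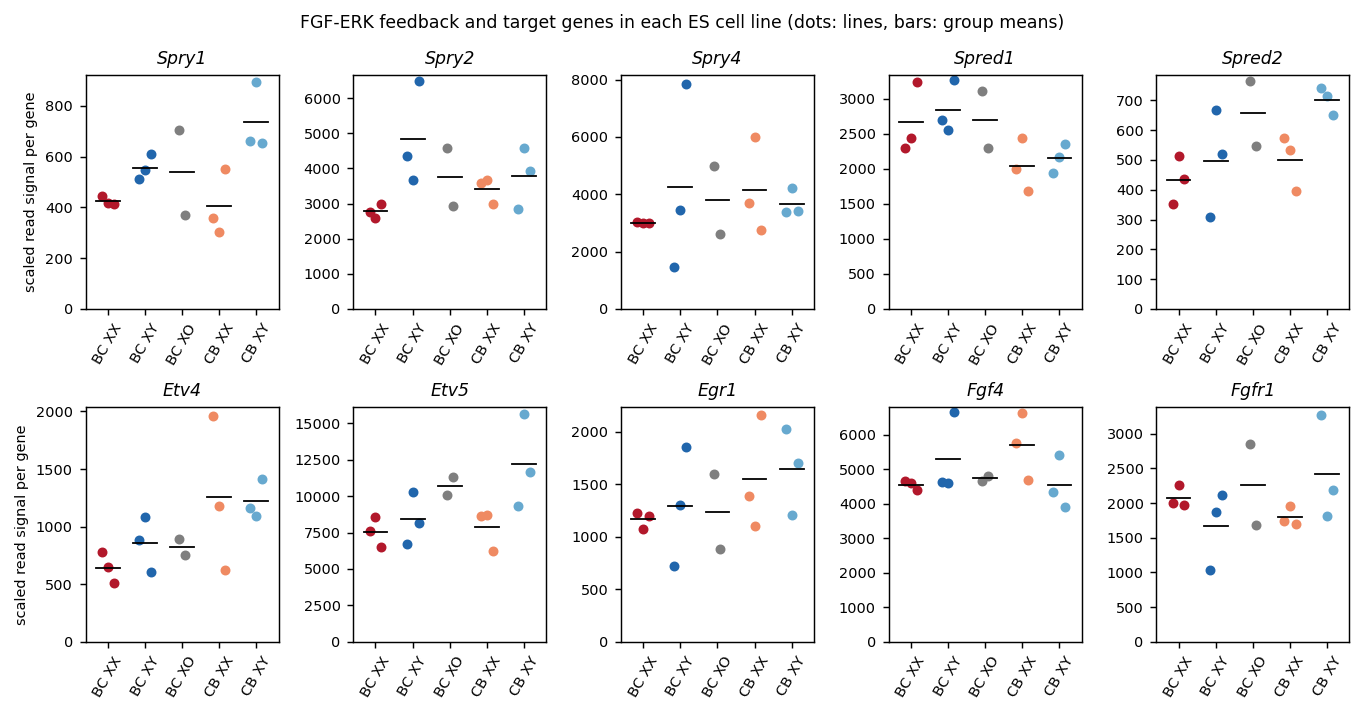
Scaled read signal of each of the 10 genes (linear axes from 0), 1 dot per line, with a bar at the mean of each of the 5 groups. The *Spry1* dots of XX lines lie below those of XY lines within each cross, *Spry4* spreads from 1476 to 7855 within BC XY, and *Fgf4* spreads least within groups.

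*Fgf4*, the ligand of the loop, lies at chr7:152047291-152051148 on the plus strand of mm9. Its signal was 4667, 4605 and 4389 in the BC XX lines and 4640, 4600 and 6653 in the BC XY lines. The CB XX lines had 5767, 6637 and 4696, the CB XY lines 4350, 5413 and 3892, and the BC XO lines 4660 and 4812. All but 4 of these values lay between 3892 and 4812. The XX and XY lines of each cross overlapped, whereas the BC XX lines, the highest at 4667, were all below the CB XX lines, the lowest at 4696 (BC minus CB log2 difference -0.31, interval -0.69 to 0.07, adjusted p = 0.28). Chromosome 7, which holds *Fgf4*, was at -0.28 in BC XX 3, the line with 4389. Over both crosses the XX minus XY difference was 0.06 on the log2 scale, with a 95% interval from -0.24 to 0.37 (limma, adjusted p = 0.82). The sign differed between crosses, at -0.20 in BC and 0.32 in CB, and the test of that difference gave -0.52, with an interval from -1.05 to 0.01 and an adjusted p of 0.56.

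*Fgfr1*, the receptor, lies at chr8:26624126-26686186 on the plus strand. Its signal was 2005, 2260 and 1971 in BC XX and 1039, 1866 and 2112 in BC XY lines. In the other cross it was 1740, 1958 and 1695 in CB XX and 3270, 1820 and 2189 in CB XY lines, and the XO lines had 2853 and 1683. The highest value was that of CB XY 1, the line in which chromosome 8 was raised by 0.33, and the value in CB XX 3, where the chromosome was raised by 0.25, was 1695. In BC XX 3, where the chromosome was at -0.19, it was 1971. Over both crosses the log2 difference was -0.01 (interval -0.45 to 0.44, adjusted p = 0.99). Within BC it was 0.37 and within CB -0.39, and the difference between crosses was 0.76 (interval -0.06 to 1.58, adjusted p = 0.59).

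*Spry1*, a Sprouty inhibitor, was the member with the clearest difference between XX and XY lines. It lies at chr3:37538869-37543520 on the plus strand. The XX lines had 446, 416 and 412 in BC and 357, 305 and 552 in CB. The XY lines had 513, 549 and 609 in BC and 660.4, 894 and 656 in CB. Every XX line was below every XY line of its own cross, but CB XX 3 (552) was above BC XY 1 (513) and BC XY 2 (549). The mean was 415 ± 84.0 (SD, n = 6) in XX and 647 ± 134 in XY lines, and the log2 difference was -0.64 with an SE of 0.17 (interval -1.001 to -0.27, adjusted p = 0.045), a fold of 1.55. Within BC the difference was -0.38 (interval -0.93 to 0.16, adjusted p = 0.39) and within CB -0.89 (interval -1.43 to -0.34, adjusted p = 0.073), and the interaction was 0.50 (interval -0.27 to 1.27, adjusted p = 0.74). The XO lines had 707 and 371, above all and below all of the BC XX and BC XY lines respectively.

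The call for *Spry1* was close to the threshold. Without the libraries labelled CB XY 2 and 3 the log2 difference was -0.50 with an adjusted p of 0.18, and with the mean level of the feeder markers as a covariate it was -0.64 with an adjusted p of 0.14. Over the 12 fits that left out 1 line each, the difference stayed between -0.72 and -0.54 and the adjusted p ran from 0.034 to 0.10, under 0.05 in 3 of them. Those fits called 410 to 1746 of all genes, against 797 with all lines. With the feeder covariate the *Spry1* difference was -0.03 within BC (limma, adjusted p = 0.996) and -0.85 within CB (adjusted p = 0.078). Within BC the covariate nearly coincides with the XX group, so that its fit cannot tell feeder level from group.

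*Spry2* lies at chr14:106291166-106296036 on the minus strand. Its signal was 2755, 2587 and 2993 in BC XX lines and 4355, 3679 and 6478 in BC XY lines, so that every BC XX line was below every BC XY line. In CB, the XX lines had 3598, 3670 and 2975 and the XY lines 2837, 4590 and 3916, which overlap. The BC XO lines had 4588 and 2937. The log2 difference was -0.76 within BC (interval -1.25 to -0.27), a fold of 1.69, and did not pass the test over all genes (adjusted p = 0.067). Within CB it was -0.13 (interval -0.61 to 0.36, adjusted p = 0.81), and the interaction of -0.63 did not pass either (interval -1.33 to 0.06, adjusted p = 0.60). Over both crosses the difference was -0.44 (interval -0.81 to -0.08, adjusted p = 0.14). The BC XX lines are those with the raised fibroblast markers, and with the feeder level as a covariate the BC difference was -0.30 (adjusted p = 0.89). That covariate nearly coincides with the BC XX group, so that its fit cannot tell feeder level from group. It took the calls over all genes within BC from 927 to 11.

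*Spry4*, at chr18:38745922-38760922 on the minus strand, varied most between lines of a group. The 3 BC XX lines lay together at 3041, 2992 and 2983, whereas the BC XY lines had 1476, 3443 and 7855, the lowest and the highest values of all 14 lines. The CB XX lines had 3693, 5990 and 2756, the CB XY lines 3369, 4205 and 3417, and the XO lines 5001 and 2602. The XX minus XY log2 difference was -0.04 over both crosses, and its interval from -0.70 to 0.63 was the widest of the 10 genes (adjusted p = 0.95).

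The Spred proteins, membrane-bound relatives of Sprouty that suppress RAS, were represented by *Spred1* and *Spred2*. *Spred1* (chr2:116947110-117008015, plus strand) had 2305, 2442 and 3247 in BC XX, 2698, 2562 and 3270 in BC XY, 1993, 2447 and 1682 in CB XX and 1939, 2174 and 2360 in CB XY lines. The XO lines had 3110 and 2303. Its XX minus XY log2 difference was -0.10 (interval -0.44 to 0.25, adjusted p = 0.75), nearly the same in BC (-0.10) and CB (-0.09). Every BC XY line was above every CB XY line, with a log2 difference of 0.39 that did not pass the test (interval -0.004 to 0.79, adjusted p = 0.27).

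*Spred2* (chr11:19824378-19924029, plus strand) had 351, 514 and 435 in BC XX and 309, 667 and 519 in BC XY lines, and 764 and 549 in the XO lines. The CB XX lines had 573, 533 and 397, all below the CB XY lines with 741, 715 and 652. The log2 difference was -0.50 within CB (interval -1.06 to 0.06, adjusted p = 0.33), -0.15 within BC and -0.32 over both (interval -0.78 to 0.13, adjusted p = 0.39). Both XO lines were above the BC XX lines, with a BC XX minus XO difference of -0.59 (interval -1.22 to 0.04, adjusted p = 0.24).

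Among the targets, *Etv5* (chr16:22381382-22439792, minus strand) had the highest signal. The BC XX lines had 7600, 8542 and 6516 and the BC XY lines 6711, 10296 and 8183, and the XO lines, at 10046 and 11313, were above all BC XX lines. In CB the XX lines had 8616, 8702 and 6247, all below the XY lines with 9357, 15633 and 11653. The log2 difference within CB was -0.62 (interval -1.07 to -0.18, adjusted p = 0.12), a fold of 1.54, and within BC -0.14 (interval -0.58 to 0.30, adjusted p = 0.73). The interaction was 0.48 (interval -0.15 to 1.11, adjusted p = 0.67). The largest value, 15633, belonged to CB XY 2, and without the libraries labelled CB XY 2 and 3 the CB difference was -0.27 (adjusted p = 0.73), with CB XY 1 as the single CB XY line and the spread taken from the other groups.

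*Etv4* (chr11:101631056-101646685, minus strand) had 780.2, 646 and 506 in BC XX, 884, 1086 and 609 in BC XY and 895 and 757 in XO lines. It was more scattered in CB XX lines, at 1963, 1182 and 622, than in CB XY lines, at 1165, 1090 and 1410. The XX minus XY log2 difference was -0.25 (interval -0.89 to 0.39, adjusted p = 0.65). Between XX lines of the 2 crosses, the BC minus CB log2 difference was -0.83 (interval -1.54 to -0.12, adjusted p = 0.13). Without CB XX 3, the line at 622, that difference was -1.26 (limma, adjusted p = 0.011). Without CB XX 1, the line at 1963, it was -0.43 (adjusted p = 0.49), so that its size depended on single CB XX lines.

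*Egr1* (chr18:35020861-35024638, plus strand), the immediate early gene of the set, had 1229, 1074 and 1199 in BC XX, 726, 1305 and 1853 in BC XY and 1597 and 885 in XO lines. The CB XX lines had 1392, 1100 and 2162 and the CB XY lines 2032, 1206 and 1704. All groups overlapped, and the XX minus XY log2 difference was -0.08 (interval -0.60 to 0.44, adjusted p = 0.87).

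Over both crosses, 1 of the 10 genes, *Spry1*, was lower in XX lines at a false discovery rate of 0.05, and none was higher. Of all 15311 genes tested, 5.21% were called in either direction, so that a share of 1 in 10 members is near the background. The fit pooled the crosses without a term for them, and with the cross as a covariate 1697 of all genes were called, against 797. In the fitted differences 9 members were below 0 and *Fgf4* was above, with a median of -0.17 against -0.03 over all genes, of which 53.2% were below 0. No member had every XX line below every XY line of both crosses, a pattern held by 1.23% of all genes. An unadjusted p under 0.05 was reached by *Spry1* and *Spry2*. In these bulk libraries fewer cells expressing a gene and less RNA per cell cannot be told apart.

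Within BC, none of the 10 genes was called by limma, with 1, *Spry2*, at an unadjusted p under 0.05, against 5.70% called of 16261 genes. The XX lines did not overlap the XY lines from below for *Spry1* and *Spry2*, 2 of 10, against 12.5% of all genes, and none was separated from above, against 14.6%. Within CB none was called either, with *Spry1* and *Etv5* at an unadjusted p under 0.05, against 3.57% called of all genes. Here *Spry1*, *Spred2* and *Etv5* were separated from below, 3 of 10 against 11.5% of all genes, and none from above, against 11.7%. *Spry1* was the one member separated in both crosses, a pattern whose share among all genes was not computed. The median log2 difference was -0.17 in BC and -0.12 in CB, against -0.04 and -0.02 over all genes. Over the 10 ES cell markers it was -0.36 in BC and 0.05 in CB. In the test of the difference between the crosses 0.0738% of all genes and no member passed, the smallest adjusted p being 0.56 and none having an unadjusted p under 0.05, with 95% intervals of a median half-width of 0.78.

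**Figure D4:**
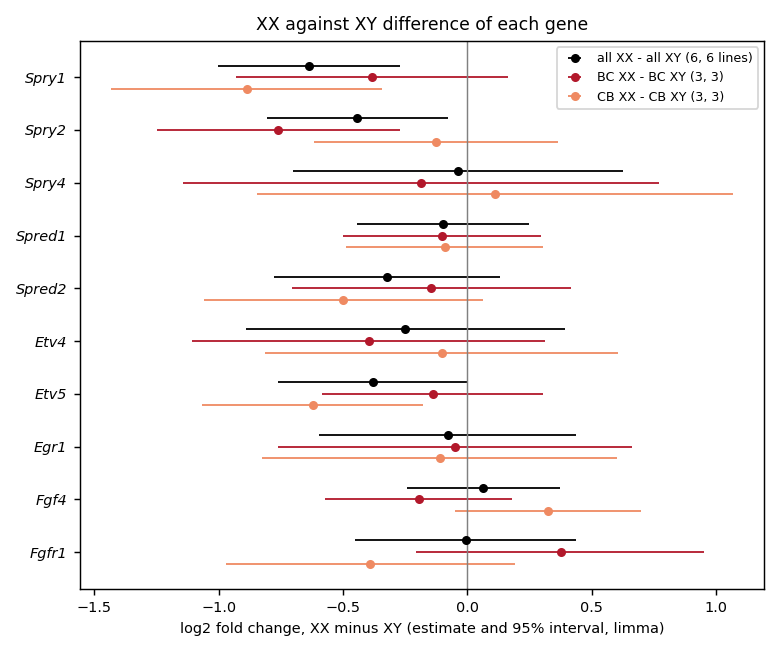
Fitted log2 fold change of XX minus XY (horizontal axis) with its 95% interval from limma for the 10 genes, over both crosses (6 XX and 6 XY lines, black), within BC (3 and 3, red) and within CB (3 and 3, orange). The interval over both crosses excludes 0 for *Spry1* and *Spry2*. The estimates for *Fgf4*, *Fgfr1* and *Spry4* lie on different sides of 0 in the crosses.

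The XO lines, with 1 X chromosome and no Y, were compared with both other BC groups, which makes these comparisons share lines. The fitted BC XX minus XO difference was below 0 for all 10 genes, against 51.4% of all genes. The median was -0.27, against -0.02 over all genes and -0.535 over the 10 ES cell markers. None of the 10 genes passed the test, against 4.66% of all genes. The smallest adjusted p was that of *Etv5*, 0.20, with a log2 difference of -0.51 (interval -1.002 to -0.009), the only member with an unadjusted p under 0.05. Leaving out BC XO 1 leaves 1 XO line. In that fit the difference was above 0 for *Spry1* (0.19), *Spry4* (0.21), *Spred1* (0.19), *Egr1* (0.395) and *Fgfr1* (0.30). It stayed below 0 for *Spry2*, *Spred2*, *Etv4*, *Etv5* and *Fgf4*. With the feeder level as a covariate the *Etv5* difference was 0.02 (adjusted p = 0.99). Those of *Spry1*, *Spry4*, *Etv4*, *Egr1*, *Fgf4* and *Fgfr1* were then also above 0, and those of *Spry2*, *Spred1* and *Spred2* below 0. Here too the covariate nearly coincides with the BC XX group, and calls over all genes went from 758 to 13. Between XO and BC XY lines the fitted difference was above 0 for 4 members and below 0 for 6, with a median of -0.02. None passed and none had an unadjusted p under 0.05, against 0.00615% of all genes called, which is 1 gene. With 2 XO lines the half-width of the intervals had a median of 0.62.

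The direction of the cross was compared between lines with the same sex chromosome label. Apart from CB XY 1, the CB XY libraries had low Y-linked RNA. Their summed signal of 4 Y-linked genes was 54 and 226, against 2107 to 4640 in BC XY lines. The comparison of XY lines was therefore not at equal Y-linked RNA, and it cannot tell the cross from that difference. Between BC XX and CB XX lines none of the 10 genes was called, with 1 (*Etv4*) at an unadjusted p under 0.05, against 7.15% called of all genes, and between BC XY and CB XY lines none was called, with 1 (*Etv5*) at an unadjusted p under 0.05, against 0.640%. In the latter, the BC minus CB log2 difference of *Etv5* was -0.53 (interval -0.97 to -0.09, adjusted p = 0.19), which was -0.18 with CB XY 1 as the single CB XY line. The median over members was -0.25 for XX and -0.40 for XY lines, against -0.01 and 0.01 over all genes. Over the 10 ES cell markers it was -0.54 for XX and -0.07 for XY lines.

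The rest of the pathway was described from 5 lists of other genes, of which 71 were tested. Between all XX and all XY lines 5 of these were called, 7.04%, near the 5.21% of all genes. Of 9 further FGF ligands and receptors and of 14 adaptors and RAS regulators, none was called in that comparison. Of 15 genes of the kinase cascade, 2 were higher and 2 lower in XX lines. *Araf*, an X-linked RAF kinase, had 2226, 1853 and 1458 in BC XX and 2027, 2087 and 1942 in CB XX lines, above all 6 XY lines, which had 1034 to 1307. Its log2 difference was 0.65 (adjusted p = 0.0076), with an adjusted p of at most 0.046 under every alternative tried. *Rps6ka3*, X-linked and coding for an ERK-activated S6 kinase, was higher by 0.82 (adjusted p = 0.014), at 593 to 1231 in XX and 434 to 609 in XY lines, and with the feeder level as a covariate its adjusted p was 0.11. The XO lines, with a single X chromosome, had *Araf* at 1246 and 1382, within or near the range of the XY lines. They had *Rps6ka3* at 597 and 603, which lie within the ranges of both the XY and the XX lines.

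On the lower side, *Rps6ka2*, another S6 kinase of this family, had 897 to 1819 in XX and 2053 to 2849 in XY lines, with a log2 difference of -0.63 (adjusted p = 0.042). It passed in 6 of the 12 fits without 1 line, and its lowest value was in CB XX 2, where its chromosome 17 was at -0.20. That chromosome was also low in BC XX 3, at -0.27, a line with 1732. *Mapk3*, one of the ERK genes themselves, had 637 to 1103 in XX and 887 to 1311 in XY lines (log2 difference -0.54, adjusted p = 0.04985), and passed in 2 of those 12 fits. Its chromosome 7 was at -0.28 in BC XX 3, a line with 760.3. Of 12 other feedback inhibitors 11 were tested, and *Dusp9*, an X-linked phosphatase that removes the activating phosphates from ERK, was higher by 0.80 (adjusted p = 0.049), passing in 1 of the 12 fits. None of 22 other ERK-responsive genes was called.

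Within CB, 5 of the 71 listed genes tested were lower and 1 was higher in XX lines, 8.45% against 3.57% of all genes, a difference that was not tested. In the test of the difference between the crosses none of the 71 passed, against 0.0738% of all genes. *Dusp6*, a phosphatase specific for ERK and an established target of the pathway, had 1447, 1100 and 1567 in CB XX lines, against 3692, 3355 and 3485 in CB XY lines. The BC lines of all 3 groups had 3243 to 5137. Its log2 difference was -1.37 (adjusted p = 0.0027), and was -1.44 without the libraries labelled CB XY 2 and 3. That fit leaves CB XY 1 as the only CB XY line, which is assumed to vary like lines of the other groups. Chromosome 10, which holds *Dusp6*, was at -0.23 in CB XX 2. The ligand *Fgf8* had 11.4, 17.1 and 85.3 in CB XX and 640.2, 157 and 427 in CB XY lines (log2 difference -3.48, adjusted p = 0.0086), and *Fgf5*, a ligand that marks the primed epiblast, was lower by a log2 difference of -1.74 (adjusted p = 0.047). *Egr4* had 7.31 to 20.4 in CB XX and 73.7 to 90.9 in CB XY lines (adjusted p = 0.0090), and *Il17rd*, an inhibitor also known as Sef, had a log2 difference of -0.81 (adjusted p = 0.042). *Araf* was higher there, by 0.75 (adjusted p = 0.023). With CB XY 1 alone for that group, the log2 difference was -4.34 for *Fgf8* (adjusted p = 0.031), -2.39 for *Fgf5* (0.11), -2.34 for *Egr4* (0.12), -0.66 for *Il17rd* (0.39) and 0.62 for *Araf* (0.30). Chromosome 19, which holds *Fgf8*, was at -0.20 in CB XX 2. In the 6 fits that left out 1 CB line each, *Dusp6* passed in 6, *Egr4* in 5, *Fgf8* in 4, *Araf* in 3, *Fgf5* in 2 and *Il17rd* in 1. Those fits called 145 to 653 of all genes, against 581 with all lines. Of 7 primitive endoderm markers *Foxa2*, named after its values were seen, was lower in CB XX lines, at 8.53 to 37.3 against 31.9 to 182 (adjusted p = 0.038), and the median of the list was -0.88 on the log2 scale. None of 7 trophoblast markers was called there, and the part of either list in these results was not tested. If the smallest step is 1 read, 3 reads are a signal of 4.26 in CB XX 1, 3.66 in CB XX 2 and 2.67 in CB XX 3. The lowest values of *Fgf8*, *Egr4* and *Foxa2* in CB XX lines thus rest on few reads.

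**Figure D5:**
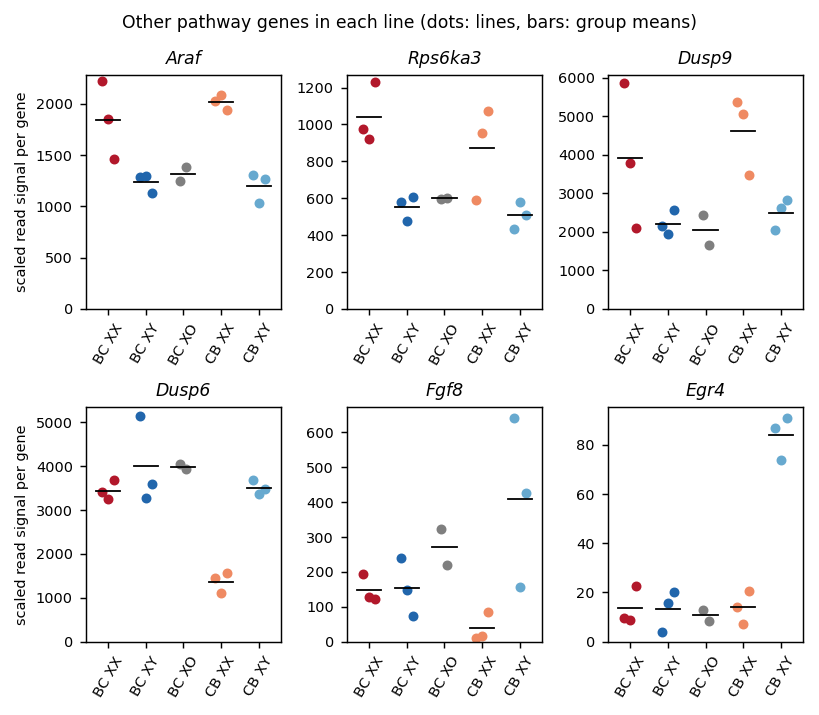
Scaled read signal of 6 other pathway genes (linear axes from 0), 1 dot per line, with a bar at the mean of each of the 5 groups. *Araf* is higher in both XX groups than in the XY and XO groups, *Dusp6* is low in the 3 CB XX lines and *Egr4* is high in the 3 CB XY lines.

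Within BC, *Rps6ka3* (0.90, adjusted p = 0.030), the ETS factor *Elk3* (1.30, adjusted p = 0.020), the immediate early gene *Ier3* (1.24, adjusted p = 0.033) and the receptor inhibitor *Lrig1* (0.76, adjusted p = 0.041) were higher in XX lines on the log2 scale, and no listed gene was lower, which makes 5.63% called of the lists against 5.70% of all genes. With the feeder level as a covariate the differences were 0.48, -0.14, -0.17 and 1.15, and none passed. Calls over all genes went from 927 to 11 in that fit, which cannot tell feeder level from group. Of the 6 fits without 1 BC line, *Rps6ka3*, *Elk3* and *Ier3* passed in 2 each and *Lrig1* in 0. Those fits called 229 to 992 of all genes, against 927 with all lines. In the XO comparison 4.23% of the listed genes were called, against 4.66% of all genes. The fits without 1 BC XX line called 70 to 990 of all genes, against 758 with all lines. *Fgf17* (log2 difference -1.30, adjusted p = 0.043) and *Ier2* (-1.13, 0.043) were lower and *Ier3* (1.30, 0.049) higher in BC XX than in XO lines. In the 5 fits without 1 line they passed in 0, 1 and 1.

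Between the crosses, *Dusp6* was higher in BC XX than in CB XX lines by 1.34 on the log2 scale (adjusted p = 0.0014), and so were *Fgf5* by 2.62 (adjusted p = 0.0066), *Fgf8* by 2.23 (adjusted p = 0.043) and *Lrig3* by 0.83 (adjusted p = 0.045), while *Ier2* and *Sh2b3* were lower, by -1.76 (adjusted p = 0.0029) and -0.86 (adjusted p = 0.041). These 6 are 8.45% of the listed genes, against 7.15% of all genes called. None of them passed with the feeder level as a covariate, which took the calls over all genes from 1162 to 43 and cannot be told from the BC XX group. *Dusp6*, *Fgf5* and *Ier2* passed in all 6 fits without 1 line, *Sh2b3* in 2, and *Fgf8* and *Lrig3* in 1. Those fits called 119 to 2576 of all genes, against 1162 with all lines. In XY lines *Egr4*, *Junb*, *Ier2* and the adaptor *Frs3* were lower in BC than in CB, with log2 differences of -2.42, -2.37, -1.62 and -1.20. They are 5.63% of the listed genes, against 0.640% of all genes, and this difference was not tested. None of these 4 passed in any fit without 1 line. Those fits called only 2 to 8 of all genes, against 104 with all lines.

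The genes whose pattern over the 14 lines was most like that of a member were ranked by Pearson's r of log2 values among 16261 genes. *Spred2* was closest to *Trp53* (r = 0.95) and *Arid1a* (r = 0.95), *Etv5* to *Esam* (r = 0.95) and *Fam160a2* (r = 0.93), and *Spry4* to *Ticrr* (r = 0.94) and *Ecel1* (r = 0.92). For *Spry1* the closest were *Zmynd15* (r = 0.92) and *Tln2* (r = 0.91), for *Spry2* *Asb8* (r = 0.89) and *Wdr93* (r = 0.88), and for *Spred1* *Limch1* (r = 0.88) and *Ubash3b* (r = 0.85). *Egr1* was most like *Ccsap* (r = 0.89) and *Fosb* (r = 0.88), an immediate early gene of the Fos family. *Etv4* was most like *Med9* (r = 0.93) and *Tmem214* (r = 0.93), *Fgf4* like *Wif1* (r = 0.92) and *Col26a1* (r = 0.87), and *Fgfr1* like *2310022B05Rik* (r = 0.89) and *Zfp703* (r = 0.84). Both of the last, like *Fgfr1*, lie on chromosome 8, which was raised in CB XY 1 and CB XX 3. Of the 17 genes that could be placed, 4 were on the chromosome of their member, the others being *Trp53* with *Spred2* and *Med9* with *Etv4* on chromosome 11.

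Among the 10 members themselves, r over the 14 lines ran from -0.39 (*Spred1* with *Etv4*) to 0.77 (*Spred2* with *Etv5*). *Spred2* and *Fgfr1* had 0.68, *Spry4* and *Fgf4* 0.65, and *Egr1* and *Fgfr1* 0.64, while *Spry1* and *Spry2* had 0.46. All of these are descriptions over 14 lines that share groups and library depth.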

How the data were processed

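Total RNA of 14 ES cell lines in 5 groups was measured with stranded single-end libraries of 50-base reads. According to the methods, the authors aligned reads with TopHat2 to the mm9 build and quantified genes with Cufflinks and Cuffdiff; versions are not given in the sources used here. Each deposited value is a gene's read signal, which the authors had scaled so that libraries sum to similar totals. Libraries were prepared in batches that the sources do not assign to lines, so that batches were not modelled.

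The members and lists were chosen with earlier results of these data known. Values were used as log2(value + 5), so that fold changes of low genes are understated. All XX and XY lines were compared with limma 3.58.1 (R 4.3.3, trended variance, two-sided moderated tests) over 15311 genes with a value of 10 or more in at least 6 lines. That fit had no term for the cross. The other comparisons were contrasts of 1 model of the 5 groups over 16261 genes with such a value in at least 2 lines. P-values were Benjamini-Hochberg adjusted over all genes tested, calls were made at a false discovery rate of 0.05, and intervals cover 95%. Left out were 15 genes, none of them a member, with a value of 0 throughout at least 1 group and of 100 or more elsewhere. Count tests were intended in case of raw counts and were not used.

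Named are the 10 members, up to 4 called genes per pathway list and comparison, Y-linked and cell type markers as checks, and for each member the 2 genes with the highest Pearson's r. Exon lengths and positions are from GENCODE vM1 on mm9 and promoters from RefSeq. Code was tested on simulated data, and tables were joined with Python 3.11.15. Alternatives were another pseudocount, no filter, median-of-ratios scaling, quantile normalization, the feeder level or the cross as a covariate, a stricter rate of 0.01, the replicate number as a block, and lines left out. The fit of the 6 BC lines alone without the block was chosen after seeing the data.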

Additional observations from a re-analysis of the deposited data

Results flagged for a closer look

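Of 20 sets of 6 lines, the XX lines and the XY lines for each of the 10 genes, 2 had a line whose distance from the nearest other line, as a share of the whole range, was above Dixon's critical value, and chance flags about 1 in 20 such sets. *Spry4* in CB XX 2 (5990, the next XX line at 3693) had a ratio of 0.710 among the 6 XX lines. *Egr1* in CB XX 3 (2162, the next XX line at 1392) had a ratio of 0.708. Neither gene was called in any comparison.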

How the results depend on the processing

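The single call among the members between all XX and all XY lines, *Spry1*, was lost, so that the count went from 1 to 0, at a false discovery rate of 0.01, without a filter on low values (adjusted p = 0.0548), with quantile normalization (0.0508), with the feeder level as a covariate (0.136), and without the libraries labelled CB XY 2 and 3 (0.184). Leaving out each line in turn gave counts from 0 to 1. The count was 1 without CB XX 3 within CB (*Spry1*, log2 difference -1.13, adjusted p = 0.0251) and between BC XX and CB XX lines (*Etv4*, -1.26, adjusted p = 0.0111), and 0 in the other 5 fits of each that left out a line. The *Etv5* difference between BC XX and XO lines reversed to 0.019 with the feeder covariate, which nearly coincides with the BC XX group. Of 109 alternatives for the 8 member differences with an unadjusted p under 0.05, 93 kept both their direction and their side of the threshold. The 72 others changed sign in 95 of 951 alternatives and were called in none. Same-numbered BC XX and BC XY lines come from different blastocysts, and their deviations correlated at -0.17, 0.25 and -0.06, only BC XX 2 being closest to its own number, so the numbers pair no lines. In limma, the replicate block left the count of members at 0, as did the same 6 lines without it, while the count over all genes went from 628 to 0. No block was fitted for the other comparisons because the CB XX columns carry no line number. The test on read counts was not run, because some values lie between multiples of the smallest step. Among members, intervals of a median half-width of 0.41 (12 lines) to 0.78 (interaction) limit what could be seen.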
